A study of Mus musculus with 36 samples.

Results

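Genes of T cell anergy and of the adenosine pathway were followed in CD4 T cells of mice with and without the heterochromatin proteins HP1a or HP1g. The 9 genes were chosen by name: Izumo1r, Nt5e, Entpd1, Adora2a, Rnf128, Cblb, Itch, Dgka and Dgkz. All 9 were found among the 56748 genes of the table, each by 1 identifier, and all 9 passed the filter on low counts in all 18 comparisons made. RNA-seq libraries came from spleen CD4 T cells of 2 lines, 2 genotypes and 3 conditions, which gives 12 groups. Naive cells were purified by magnetic negative selection. Tconv were naive cells injected into lethally irradiated hosts together with B6 and B6D2F1 bone marrow, and recovered weeks later by sorting Vβ6+ donor cells. Tconv with Treg were injected with ex vivo expanded wild-type regulatory T cells, which carry a Foxp3-Thy1.1 reporter, and the sort left out Thy1.1+ cells.

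In the HP1a line, a floxed Hp1a allele had been deleted in all tissues with CMV-cre, and HP1a KO (-/-) and HP1a WT (+/+) cells came from littermates. In the HP1g line the deletion was made with Cd4-cre, so it is restricted to T cells, and the HP1g WT controls were floxed littermates without Cre. Both lines were kept on a mixed 129/Sv and C57BL/6 background. Donors were sex-matched adults, and the study reports that it used males for its sequencing. Each group had 3 libraries, except HP1g KO Tconv with Treg, which had 2 because its replicate 3 was left out. The study had left that library out for its GC content, its share of exonic reads and its bias along transcripts. The labels do not say whether replicates came from separate mice, so p-values measure the spread between these libraries. The lines differ in the deleted gene and in the Cre used, so their levels are set side by side without a test. The tests between lines compare effects measured within each line. The study reports that, at the ratio used in its HP1g RNA-seq, Treg did not effectively repress wild-type cells. It describes cytokine production by wild-type cells as well inhibited by Treg in its HP1a experiments. The ratio of each library is not given here, so ratio and line cannot be told apart.

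Anergy is a lasting state in which a T cell meets its antigen and fails to divide or make cytokines. In CD4 T cells it is recognised by joint display of folate receptor 4, the product of Izumo1r, and CD73, the product of Nt5e, and the study used this pair to define anergic cells. CD73 is also the last enzyme of a chain that turns extracellular ATP into adenosine: CD39, the product of Entpd1, removes phosphates down to AMP, CD73 removes the last one, and the receptor encoded by Adora2a passes the adenosine signal into the cell as cyclic AMP, which dampens antigen receptor signalling. Within the cell, anergy is held by ubiquitin ligases (GRAIL from Rnf128, CBL-B from Cblb, ITCH from Itch), which mark signalling proteins for removal, and by diacylglycerol kinases (Dgka, Dgkz), which consume the lipid that activates Ras and protein kinase C. Folate receptor 4 and CD73 are carried by regulatory and follicular helper T cells as well.

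The 9 genes lie on 7 chromosomes of GRCm39. Izumo1r (ENSMUSG00000031933) is on the minus strand at chr9:14797110-14815245 and Nt5e (ENSMUSG00000032420) on the plus strand of the same chromosome at chr9:88209089-88254146. Entpd1 (ENSMUSG00000048120) is at chr19:40600810-40731585, plus strand, and Adora2a (ENSMUSG00000020178) at chr10:75152560-75170628, plus strand. Of the ligases, Rnf128 (ENSMUSG00000031438) is at chrX:138463952-138574139, Cblb (ENSMUSG00000022637) at chr16:51851588-52028729 and Itch (ENSMUSG00000027598) at chr2:154975388-155069532, all on the plus strand. Both kinase genes are on minus strands, Dgka (ENSMUSG00000025357) at chr10:128554743-128584282 and Dgkz (ENSMUSG00000040479) at chr2:91763164-91806691. Dgka shares exon bases with 3 genes of the opposite strand (Pmel 442 bp, Gm31504 893 bp, Pym1 456 bp), Dgkz with Gm9821 (222 bp) and Gm75422 (582 bp), and Entpd1 with Gm41846 (99 bp). Whether counting used strand is not given in the sources used here, so reads of these stretches cannot be told apart, and values of the 3 genes are less certain there.

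Izumo1r, Nt5e and Rnf128 were the members that rose in wild-type HP1a Tconv grafted with Treg, so the 250 bases before the start of their canonical transcripts are shown, 5′ to 3′ on the strand of the gene, from GRCm39 with GENCODE starts. They are chr9:14815246-14815495 (minus strand) for Izumo1r, chr9:88208839-88209088 (plus strand) for Nt5e and chrX:138511119-138511368 (plus strand) for Rnf128. Capitals mark matches, on either strand, to GGAAA, the core bound by NFAT, or to GNGTGGGNG, a site of the EGR family; TGANTCA, an AP-1 site, and TGACG, the core of the element bound by CREB, were searched as well.
Izumo1r: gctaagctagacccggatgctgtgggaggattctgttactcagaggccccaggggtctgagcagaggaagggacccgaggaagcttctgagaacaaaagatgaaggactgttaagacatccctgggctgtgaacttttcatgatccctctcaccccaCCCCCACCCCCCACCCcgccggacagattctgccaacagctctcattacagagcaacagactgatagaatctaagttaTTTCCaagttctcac
Nt5e: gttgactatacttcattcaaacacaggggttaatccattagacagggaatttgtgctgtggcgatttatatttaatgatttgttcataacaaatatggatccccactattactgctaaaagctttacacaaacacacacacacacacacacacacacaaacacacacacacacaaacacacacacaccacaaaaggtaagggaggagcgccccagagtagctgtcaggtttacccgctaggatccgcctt
Rnf128: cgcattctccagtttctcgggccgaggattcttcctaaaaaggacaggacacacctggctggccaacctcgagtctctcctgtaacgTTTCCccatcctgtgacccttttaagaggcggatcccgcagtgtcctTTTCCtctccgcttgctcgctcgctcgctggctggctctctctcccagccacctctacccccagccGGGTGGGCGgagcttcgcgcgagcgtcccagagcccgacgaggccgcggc
The Izumo1r stretch held 1 GGAAA match and 2 overlapping matches to GNGTGGGNG, in a run of C bases. The Rnf128 stretch held 2 GGAAA matches and 1 to GNGTGGGNG. None of the 4 motifs matched in the Nt5e stretch, which is rich in CA repeats, and TGANTCA and TGACG matched in none of the 3. Over 21757 protein-coding promoters of the same length, 58.0% held GGAAA, 13.3% held GNGTGGGNG, 18.0% held TGACG and 6.18% held TGANTCA. The share of G and C was 52.8% for Izumo1r, 42.8% for Nt5e and 63.2% for Rnf128, against a median of 53.2% over these promoters. The Rnf128 stretch held 21 CpG dinucleotides, the other two 4 each, and the median promoter 8. These matches are a description of the letters and not of bound sites.

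The 35 libraries held 37029519 to 63042245 estimated counts (median 46844690), so that 3 counts correspond to 0.0446 to 0.0816 CPM. All 8 T cell markers averaged at least 1 CPM in every group. Cbx5, which encodes HP1a, was lower in each HP1a KO library (9.25 to 19.7 CPM) than in every HP1a WT library of its condition (18.6 to 61.9 CPM), and Cbx3, which encodes HP1g, was lower in HP1g KO (59.4 to 80.8 CPM) than in HP1g WT (79.5 to 200.2 CPM) within each condition. Transcript was left in both knockouts, and reads from exons outside the deleted part cannot check the deletion. Correlation with the other libraries of the group was taken over genes that averaged 1 CPM or more. It was lowest for replicate 3 of HP1a WT Tconv with Treg (r = 0.94), and replicate 2 was the lowest of HP1g WT naive (r = 0.970). The library left out reached 0.633.

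Levels of different genes were compared as CPM per kb of exon, since CPM alone rises with length. Dgka had the highest median of the 9 in naive cells (137.7 CPM per kb) and in Tconv (74.9), followed by Dgkz (46.9 and 37.4). In Tconv with Treg the order depended on the group. In HP1a WT with Treg, Izumo1r stood at 120.4, 147.8 and 94.4 CPM per kb, above Dgka in each library (67.8, 72.2 and 34.3). In HP1g WT with Treg, Izumo1r stood at 32.3, 10.2 and 26.1 CPM per kb, below both Dgka (69.0 to 80.8) and Dgkz (35.8 to 46.4) in each library. In HP1g KO with Treg, Izumo1r was above Dgka in replicate 1 (93.4 against 53.9) and below it in replicate 2 (53.6 against 78.5). The ubiquitin ligases Cblb and Itch lay between 7.32 and 14.5 CPM per kb at every condition, within the same order as Adora2a and Nt5e. Entpd1 (0.0323) and Rnf128 (0.186) were almost silent in naive cells and reached 9.31 and 2.37 CPM per kb in Tconv.

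**Figure D1:**
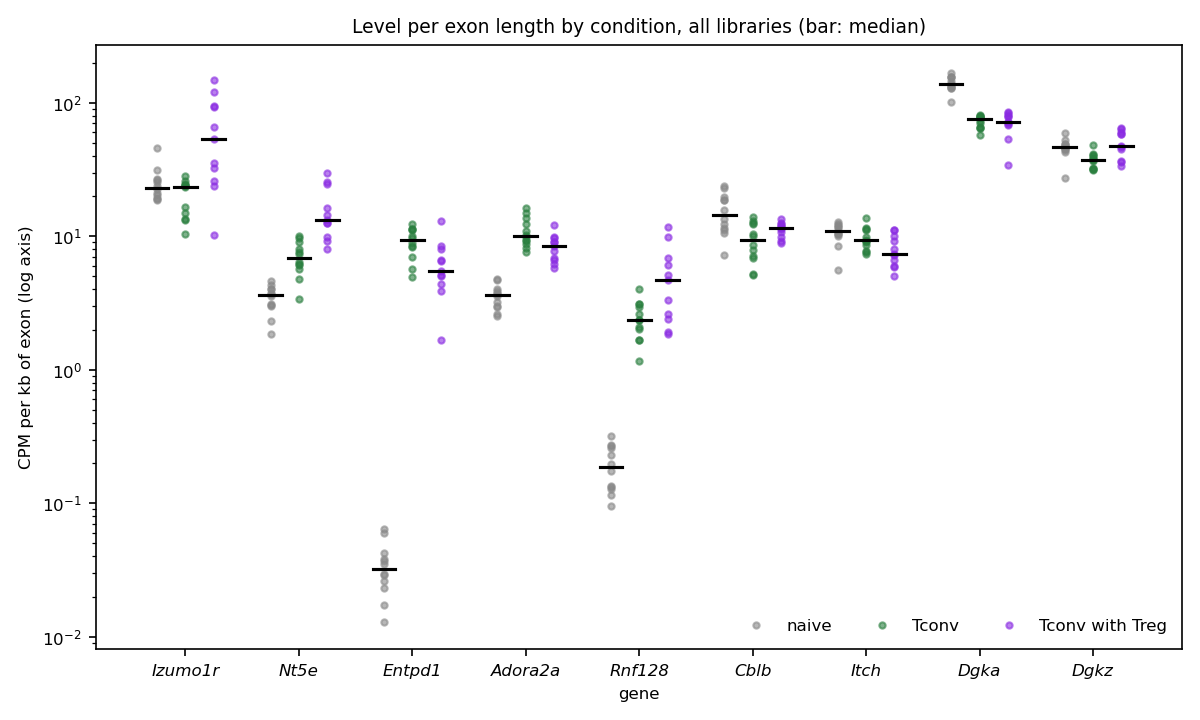
Level of each gene in CPM per kb of exon (log axis) in naive cells (12 libraries), Tconv (12) and Tconv with Treg (11), over both lines and genotypes. Points are libraries and bars medians; Entpd1 and Rnf128 are near the floor in naive cells, Dgka has the highest median in naive cells and Tconv, and the upper Izumo1r libraries lie above Dgka in Tconv with Treg.

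The first question was how the genes differ between naive cells and Tconv that had met alloantigen. Entpd1, Adora2a and Rnf128 rose in all 4 line and genotype pairs, Nt5e rose in both genotypes of the HP1a line, and no gene of the diacylglycerol kinase pair or of Cblb and Itch rose. Izumo1r, Cblb and Dgka fell in some pairs. A gene was called when edgeR's adjusted p was under 0.05 and the fold change over 2 in either direction (1 on the log2 scale). By that rule 4 genes rose and 1 fell of the 9 in HP1a WT, against 12.9% of 16027 genes higher and 10.2% lower. In HP1a KO it was 4 and 1 (12.4% and 7.24% of 15773 genes), in HP1g WT 3 and 2 (15.0% and 8.55% of 15812) and in HP1g KO 3 and 1 (15.7% and 7.3% of 15912). The median log2 difference of the 9 genes was 0.10, -0.26, 0.44 and 0.18 in these pairs, against -0.04, -0.01, -0.03 and 0.02 over all genes tested. These pairs share no libraries with each other. Naive cells were neither sorted nor taken from a host, so activation, host and purification cannot be told apart. Of 10 regulatory T cell markers 6 were called higher in each pair (1, 2, 1 and 4 lower), of 10 follicular helper markers 6, 6, 6 and 7 higher (2, 0, 0 and 0 lower) and of 10 myeloid markers 2, 8, 7 and 8 higher (1, 0, 0 and 0 lower), in HP1a WT, HP1a KO, HP1g WT and HP1g KO. Of 10 B cell markers 1 was called higher in each pair and 5, 2, 3 and 4 lower, and of 6 erythroid markers 0, 0, 6 and 5 higher and 5, 0, 0 and 0 lower. The summed regulatory T cell list was 99.7 to 157 CPM in naive libraries and 446 to 892 CPM in Tconv, and the myeloid one 42.8 to 102 CPM and 93.1 to 378 CPM. Their part in the results was not tested.

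Of the adenosine chain, Entpd1 showed the widest difference. Its naive libraries held 0.0925, 0.165 and 0.208 CPM in HP1a WT, and all 12 naive libraries together ranged from 0.0925 to 0.454 CPM, or 5 to 24 counts. In Tconv it stood at 49.9, 60.4 and 58.7 CPM in HP1a WT, 35.2, 88.7 and 80.9 in HP1a KO, 80.7, 79.8 and 71.5 in HP1g WT and 40.4, 63.5 and 69.1 in HP1g KO. Every Tconv library was far above every naive one. The log2 fold change was 8.46 ± 0.24 (SE), 7.94 ± 0.54, 8.48 ± 0.28 and 7.42 ± 0.30 in HP1a WT, HP1a KO, HP1g WT and HP1g KO (edgeR adjusted p = 1.1e-07, 8.7e-05, 3e-06 and 9.1e-07). Adora2a went from 13.4 to 25.2 CPM in naive libraries to 40.4 to 85.8 CPM in Tconv, without overlap. Its log2 fold change was 1.5 ± 0.16, 1.32 ± 0.15, 2.05 ± 0.22 and 1.63 ± 0.17 in the same order, and it was called in each pair also when any 1 library was left out.

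Nt5e, the enzyme between them, rose less. In HP1a WT it stood at 16.3, 27.4 and 26.9 CPM in naive libraries and 53.4, 64.7 and 67.0 CPM in Tconv (log2 fold change 1.40 ± 0.20, adjusted p = 0.00077). HP1a KO naive libraries held 31.2, 40.3 and 32.6 CPM and Tconv 70.0, 56.5 and 79.8 CPM, a log2 difference of 1.01 ± 0.15 (adjusted p = 0.0018) that sits at the fold threshold. It was called in 2 of 6 fits that left out 1 library, and lay between 0.89 and 0.997, under the threshold, without Tconv replicate 1 or 3 or naive replicate 1 or 3. HP1g WT Tconv were uneven, with 88.4, 54.6 and 29.9 CPM against 35.2, 20.3 and 26.4 CPM in naive cells, and the difference did not pass (1.07 ± 0.38, adjusted p = 0.067; DESeq2 0.021). Without Tconv replicate 3 it was called (1.39, adjusted p = 0.019). It was 0.77 ± 0.26 in HP1g KO (adjusted p = 0.047), below the fold threshold.

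Izumo1r, the partner of Nt5e in the anergy phenotype, was present in naive cells at 52.2 to 127 CPM and did not rise with them. Its log2 difference between Tconv and naive cells was 0.10 ± 0.23 in HP1a WT, -0.26 ± 0.19 in HP1a KO and 0.18 ± 0.13 in HP1g KO (adjusted p = 0.75, 0.32 and 0.31). In HP1g WT it fell, from 73.5, 127 and 62.7 CPM to 41.6, 28.9 and 37.4 CPM (log2 fold change -1.29 ± 0.29, adjusted p = 0.011). Without naive replicate 2, the highest library, it was -0.92, and without Tconv replicate 2 the adjusted p was 0.053, so that either library decides the call.

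Among the ligases, Rnf128 alone rose. It held 0.363 to 1.22 CPM in naive libraries and 4.48 to 15.3 CPM in Tconv, and its log2 fold change was 3.66 ± 0.28 in HP1a WT, 3.76 ± 0.39 in HP1a KO, 3.54 ± 0.28 in HP1g WT and 3.72 ± 0.31 in HP1g KO. Cblb went the other way in the HP1a line. It measured 237, 141 and 135 CPM in HP1a WT naive cells and 90.7, 65.4 and 66.6 CPM in Tconv (log2 fold change -1.20 ± 0.24, adjusted p = 0.0056). Without naive replicate 1 this was -0.89, below the fold threshold. In HP1a KO it was -1.01 ± 0.29 (adjusted p = 0.034) and was called in 2 of 6 fits without 1 library. Without any 1 of the Tconv replicates the adjusted p was 0.066 to 0.10, without naive replicate 1 the estimate was -0.60, and with the replicate number as a block the adjusted p was 0.085. Cblb did not pass in the HP1g line (-0.36 ± 0.35 and -0.48 ± 0.21 in WT and KO). Itch differed by -0.39 to 0.44 on the log2 scale, under the fold threshold in all 4 pairs.

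Dgka, the most abundant member, was lower in Tconv than in naive cells without overlap in all 4 pairs, and the difference passed the fold threshold in the HP1g line. In HP1g WT it went from 1463, 1007 and 1543 CPM to 705, 646 and 571 CPM (log2 fold change -1.06 ± 0.21, adjusted p = 0.0062), and without Tconv replicate 3 or naive replicate 3 it was -0.98 or -0.96. In HP1g KO it went from 1547, 1667 and 1559 CPM to 734, 657 and 648 CPM (-1.20 ± 0.11, adjusted p = 6.5e-05). In HP1a WT and KO it was -0.77 ± 0.08 and -0.72 ± 0.07, with adjusted p = 0.00013 and 0.00023. The log2 difference of Dgkz was -0.41, -0.35, -0.13 and -0.32 in the 4 pairs, also under the fold threshold.

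**Figure D2:**
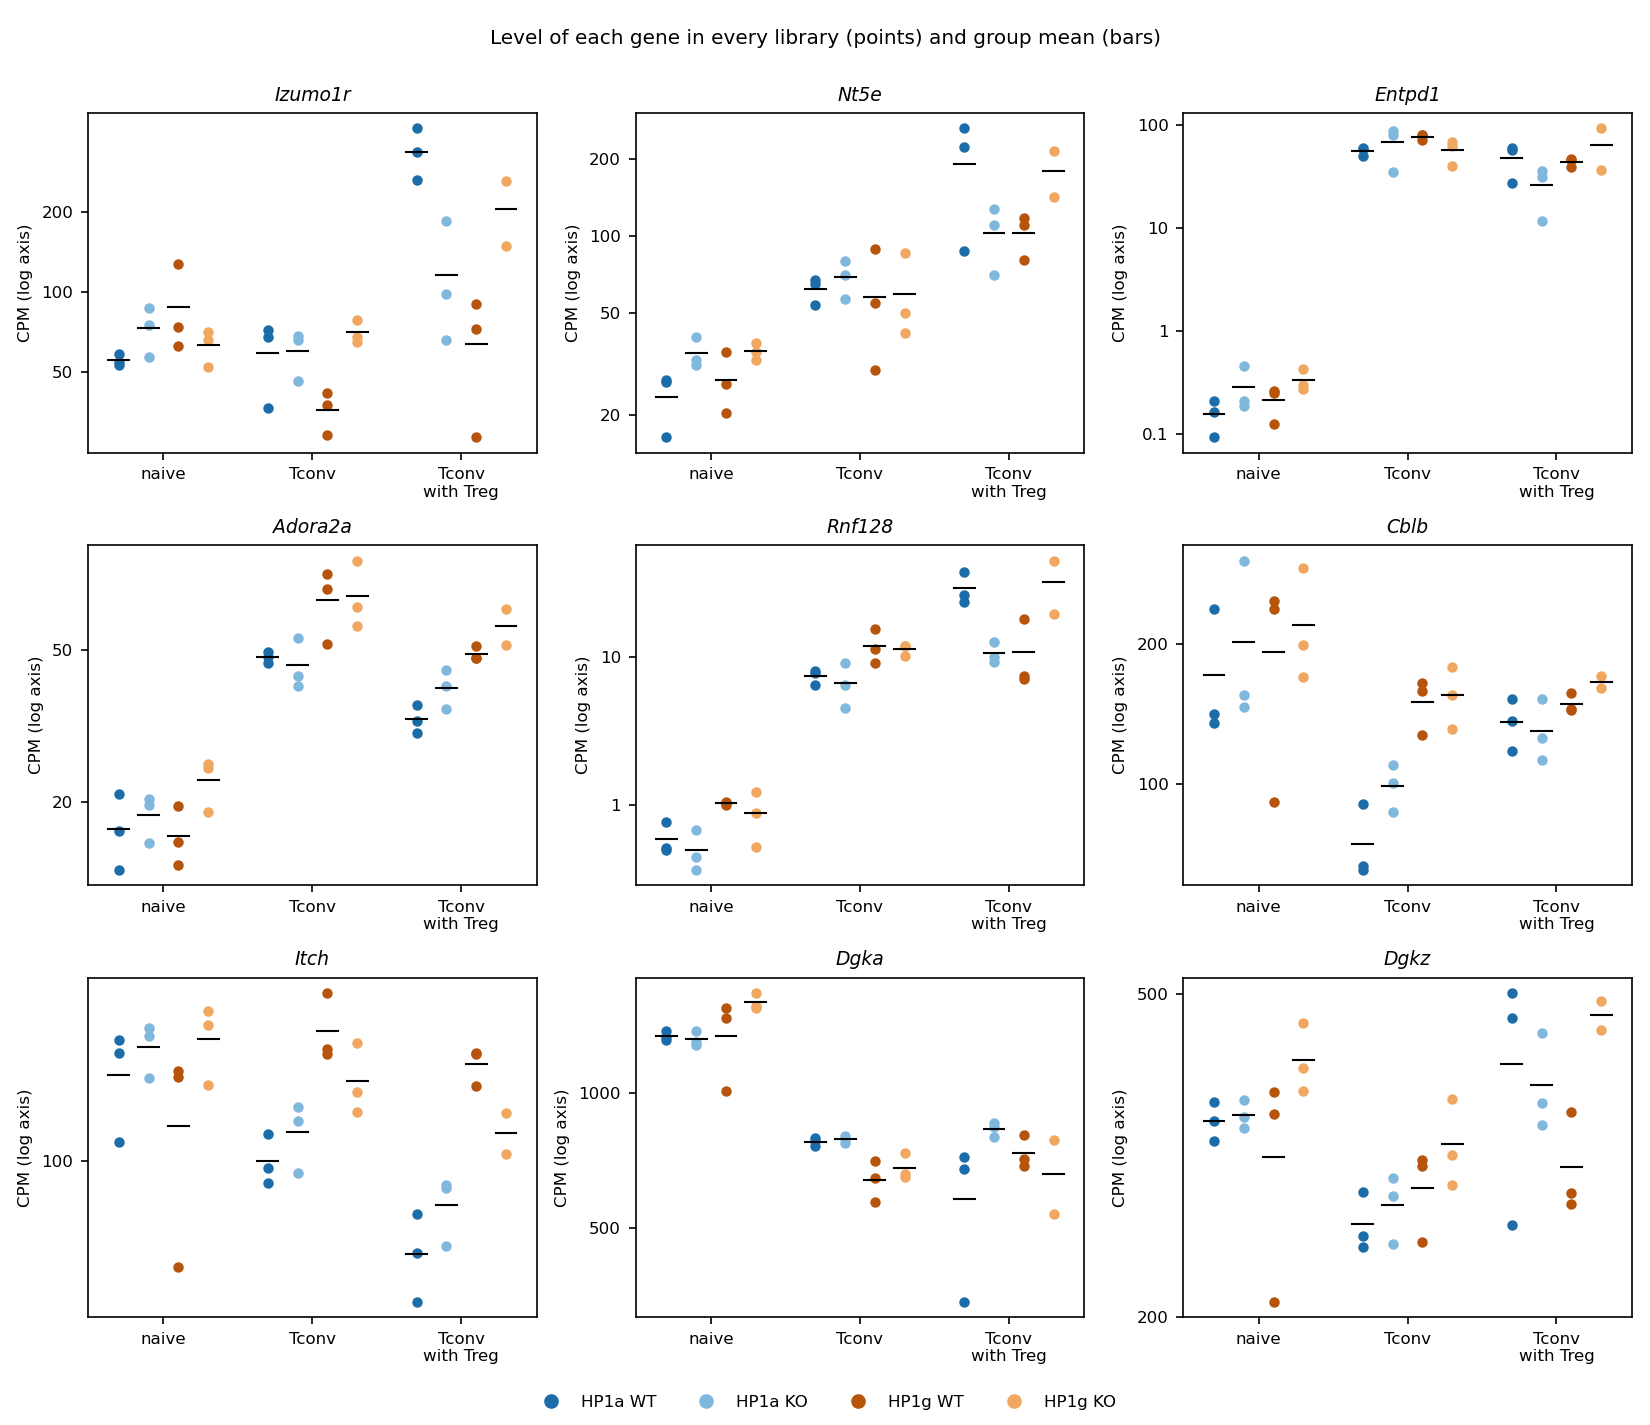
CPM of each of the 9 genes (log axis) in naive cells, Tconv and Tconv with Treg, with HP1a WT, HP1a KO, HP1g WT and HP1g KO side by side. Points are libraries (3 per group, 2 for HP1g KO Tconv with Treg) and bars group means; Entpd1, Adora2a and Rnf128 separate naive cells from Tconv, while Izumo1r, Nt5e and Rnf128 reach their highest means in HP1a WT and HP1g KO Tconv with Treg.

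Other genes of these pathways were counted in the same fits. These lists, like the 9 genes, were chosen with earlier results of these data known. Their counts, here and below, describe the lists and are no independent support. Over all genes tested, 12.9%, 12.4%, 15.0% and 15.7% were higher in HP1a WT, HP1a KO, HP1g WT and HP1g KO, and 10.2%, 7.24%, 8.55% and 7.3% lower. Of 20 further genes of adenosine and ATP handling, 13 or 14 were tested, and 4, 2, 4 and 4 rose and 0, 0, 1 and 2 fell in HP1a WT, HP1a KO, HP1g WT and HP1g KO. Cd38, an enzyme of another route to adenosine, went from a mean of 0.647 to 56.7 CPM in HP1a WT (log2 fold change 6.42 ± 0.43), and P2rx7, a receptor for ATP, from 11.1 to 123 CPM (3.48 ± 0.11); both rose in all 4 pairs. Adk, the kinase that removes adenosine inside the cell, fell in HP1g WT and HP1g KO (-1.38 ± 0.34 and -1.0 ± 0.14). Of 17 further ubiquitin ligase genes and partners, 2, 1, 1 and 2 rose and 3, 2, 2 and 2 fell, counts near the shares over all genes. The genes named next are single cases and no result about the list. Nedd4 went from 3.66 to 32.1 CPM in HP1a WT (3.14 ± 0.17) and its relative Nedd4l from 53.6 to 2.50 CPM (-4.41 ± 0.22), and Peli1, a brake on NF-κB signalling in T cells, fell from 533 to 243 CPM (-1.13 ± 0.09); each was called in all 4 pairs. Of 15 further genes around diacylglycerol, 1, 1, 2 and 1 rose and 1, 1, 0 and 0 fell, also near or below those shares. Dgkh, another kinase of the family, rose in HP1a WT, HP1a KO and HP1g WT (1.36 ± 0.18, 1.51 ± 0.13 and 2.02 ± 0.28). Of 19 further genes tied to anergy or exhaustion, 5, 5, 8 and 8 rose and 1, 1, 1 and 0 fell. Tigit and Pdcd1, which encode inhibitory receptors, rose in all 4 pairs (5.54 ± 1.12 and 3.16 ± 0.31 in HP1a WT), and Tox, a factor of exhausted cells, was the one that fell (-1.69 ± 0.24 in HP1a WT).

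The second question was how these genes differed in Tconv injected together with Treg. In HP1a WT, Izumo1r, Nt5e and Rnf128 rose, and the other 6 genes did not pass both thresholds. That is 3 of 9 genes higher and none lower, against 3.54% of 15627 genes higher and 2.43% lower. DESeq2 called the same 3 genes, against 6.2% of 28290 genes. The DESeq2 shares, here and below, are over sets without the low-count filter. They include genes of low count, so they are not like the edgeR shares. The median log2 difference over the 9 genes was 0.67, against 0.03 over all genes tested. In the other 3 pairs none of the 9 was called by edgeR, against 0.44% of 16133 genes in HP1a KO, 0.0126% of 15903 in HP1g WT and 0.0% of 16991 in HP1g KO, where edgeR called no gene at all. At an unadjusted p under 0.05 the counts were 7, 2 and 4 of 9. In HP1a KO 2551 of 16133 genes had such a p-value, and the shares for the HP1g pairs are not given here. DESeq2 called 0, 0 and 3 (Izumo1r, Nt5e and Rnf128 in HP1g KO), against 1.48%, 0.18% and 0.909% of all genes. In bulk libraries, more cells that express a gene and more of its RNA per cell cannot be told apart.

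Izumo1r showed the widest Treg difference of the 9 in HP1a WT. Its HP1a WT Tconv libraries held 67.4, 71.9 and 36.6 CPM, and those with Treg 334, 411 and 262 CPM. The lowest library with Treg was several times the highest one without. The log2 fold change was 2.53 ± 0.30 (adjusted p = 0.0042), 5.79-fold, and it was called in all 6 fits without 1 library, over which it ranged from 2.28 to 2.69. In HP1a KO it was 46.2, 65.8 and 67.9 CPM without and 65.6, 184 and 97.9 CPM with Treg, groups that overlap (0.96 ± 0.39, adjusted p = 0.30). HP1g WT overlapped too, with 41.6, 28.9 and 37.4 CPM without and 89.8, 28.3 and 72.5 CPM with Treg (0.82 ± 0.43, adjusted p = 0.76). In HP1g KO the libraries with Treg, at 259.6 and 149 CPM, lay above the 67.8, 78.2 and 64.7 CPM without (1.56 ± 0.24, adjusted p = 0.45; DESeq2 adjusted p = 7e-05).

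Rnf128 followed the same order of groups. HP1a WT libraries held 7.78, 7.99 and 6.42 CPM without Treg and 26.3, 37.6 and 23.5 CPM with Treg, without overlap. The log2 fold change was 1.99 ± 0.24 (adjusted p = 0.0042), and it was called in all 6 fits without 1 library (1.76 to 2.11). HP1a KO libraries also did not overlap, at 4.48, 6.46 and 9.03 CPM against 12.7, 9.99 and 9.26 CPM, but the step was smaller (0.69 ± 0.27, adjusted p = 0.29). In HP1g WT, 15.3, 11.3 and 9.12 CPM without Treg stood beside 18.0, 7.06 and 7.37 CPM with Treg (-0.14 ± 0.41, adjusted p = 0.97), while HP1g KO went from 11.9, 11.8 and 10.1 CPM to 44.7 and 19.6 CPM (1.53 ± 0.34, adjusted p = 0.50; DESeq2 adjusted p = 0.0079).

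Nt5e rose in HP1a WT from 53.4, 64.7 and 67.0 CPM to 222, 262 and 86.8 CPM. Replicate 3 with Treg stood well below the other two, though above every library without Treg. The log2 fold change was 1.64 ± 0.37 (adjusted p = 0.040), and 1 of 6 fits without 1 library called it, the one without that replicate 3 (1.97, adjusted p = 0.00044). Without any one of the other 5 libraries (the 3 without Treg, or replicate 1 or 2 with Treg) the adjusted p was 0.085 to 0.19, and with the replicate number as a block it was 0.065. In HP1a KO it was 70.0, 56.5 and 79.8 CPM against 70.2, 127 and 109.8 CPM (0.58 ± 0.23, adjusted p = 0.30), in HP1g WT 0.83 ± 0.40 (adjusted p = 0.76), and in HP1g KO 85.5, 49.8 and 41.8 CPM against 214 and 142 CPM (1.61 ± 0.34, adjusted p = 0.50).

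The remaining adenosine genes did not rise with Treg. Adora2a had lower means with Treg in all 4 pairs (log2 differences of -0.52 to -0.18), and in HP1a WT its libraries went from 49.6, 48.1 and 46.4 CPM to 30.3, 32.8 and 36.0 CPM without overlap (-0.52 ± 0.14, adjusted p = 0.076). Entpd1 in HP1g WT went from 80.7, 79.8 and 71.5 CPM to 46.2, 47.3 and 39.3 CPM, also without overlap (-0.81 ± 0.10, adjusted p = 0.22; DESeq2 adjusted p = 3.3e-06, under the fold threshold). In HP1a KO the Entpd1 difference was -1.36 ± 0.51 (adjusted p = 0.28), and in HP1a WT and HP1g KO it was -0.20 ± 0.29 and 0.19 ± 0.43.

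Of the other ligases and the kinases, Cblb came nearest in HP1a WT. It went from 90.7, 65.4 and 66.6 CPM to 153, 137 and 118 CPM with an adjusted p of 0.028 and a log2 difference of 0.89 ± 0.18, below the fold threshold. In the other pairs its log2 difference was 0.41 ± 0.13, -0.02 ± 0.11 and 0.11 ± 0.17 (HP1a KO, HP1g WT, HP1g KO). Itch had lower means with Treg in all 4 pairs (log2 differences of -0.42 to -0.15). Dgkz in HP1a WT held 252, 285 and 244 CPM without Treg and 466, 501 and 259.6 CPM with Treg, where replicate 3 again stood apart (0.67 ± 0.24, adjusted p = 0.16). The same replicate 3 was at 342 CPM for Dgka, against 676 and 719.8 CPM in the other libraries of its group and 761 to 794 CPM without Treg (-0.41 ± 0.26, adjusted p = 0.40).

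Of the same 19 genes of anergy or exhaustion, 10 rose with Treg in HP1a WT and none fell, against 3.54% and 2.43% of all genes tested. The list median was 1.68 on the log2 scale against 0.03 over all genes. As the list was chosen with earlier results known, these values are a description only. Lag3, an inhibitory receptor, went from a mean of 0.798 to 56.6 CPM (6.15 ± 0.32), Tox from 28.1 to 468 CPM (4.08 ± 0.37), and Pdcd1, which encodes PD-1, from 44.4 to 429 CPM (3.29 ± 0.31). Nr4a2, an orphan nuclear receptor, and Tnfrsf9, a costimulatory receptor, rose by 3.46 ± 0.63 and 3.37 ± 0.31. In HP1a KO 4 of them rose, and in HP1g WT and HP1g KO none by edgeR. No gene of the adenosine list and none of the ligase list was called in any of the 4 pairs. Of the diacylglycerol list, Dgkg and Dgki rose in HP1a WT at low levels (to 3.76 and 3.89 CPM) and Rasgrp1, the Ras activator that the kinases oppose, fell from 314 to 152 CPM (-1.03 ± 0.17).

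Markers of other T cell types also differed with Treg, not always in the direction of these genes. The summed level of 10 follicular helper markers was 470 to 641 CPM in HP1a WT Tconv and 1741 to 1844 CPM with Treg, and 8 of the 10 rose, among them Bcl6, Cxcr5 and Il21. It was 653 to 1383 CPM in HP1a KO, 547 to 812 CPM in HP1g WT and 1271 and 1757 CPM in HP1g KO with Treg. None of the 10 was at 0 in every library of a group with Treg. The summed level of 10 regulatory T cell markers was 532 to 818 CPM in HP1a WT Tconv and 816 to 916 CPM with Treg, with 2 of 10 called higher (Ikzf2 and Gpr83). With Treg the sum was 439 to 620 CPM in HP1a KO, 463 to 550 CPM in HP1g WT, and 609.8 and 1067 CPM in HP1g KO. Without Treg it was 588 to 892, 446 to 824 and 455 to 657 CPM in the same order. The median log2 difference of this list with Treg was 1.01 in HP1a WT, -0.32 in HP1a KO, -0.18 in HP1g WT and 0.96 in HP1g KO. Izumo1r and Nt5e had higher means with Treg in every pair. Foxp3, the defining gene, was at 4.41 to 12.1 CPM in HP1a WT Tconv and 13.5, 69.2 and 18.1 CPM with Treg, where the high library was replicate 2, which also had the most Izumo1r and Rnf128. Foxp3 in replicates 1 and 3 was above every HP1a WT Tconv library too. The Izumo1r and Rnf128 differences were called with and without replicate 2, which is no test of cell content. In HP1a KO with Treg, replicate 2 held the most Foxp3 (34.8 CPM, against 8.57 and 16.3 CPM) and the most Izumo1r, but not the most Rnf128. Foxp3 was at 8.46 and 11.2 CPM in HP1g KO with Treg, where the lower library held more Izumo1r and Rnf128. It was at 3.37 to 4.57 CPM in HP1g WT with Treg. The myeloid list also moved, from 95.0 to 117 CPM without to 114 to 208 CPM with Treg in HP1a WT, with 4 of 10 called. The B cell list went from 151 to 214 CPM without to 158 to 466 CPM with Treg in HP1a WT, and the list of CD8 and NK cell genes stayed under 27.7 CPM in all grafted libraries. The part of these cell types in the results was not tested.

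**Figure D3:**
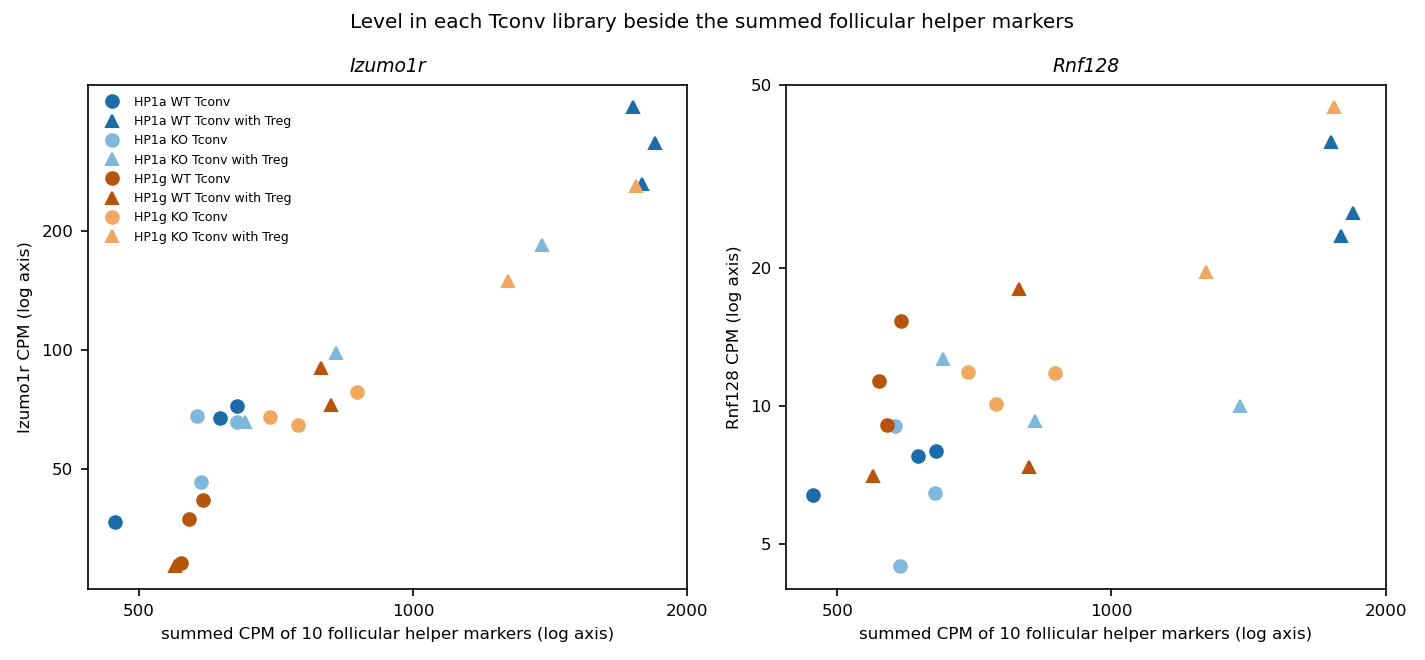
CPM of Izumo1r (left) and Rnf128 (right) in each Tconv library against the summed CPM of 10 follicular helper markers in the same library, both on log axes. Circles are Tconv, triangles Tconv with Treg, colours the line and genotype; the 6 libraries at 1271 CPM or more on the x axis (3 HP1a WT, 2 HP1g KO and 1 HP1a KO, all with Treg) hold the 6 highest Izumo1r values, while Rnf128 in the HP1a KO one was 9.99 CPM.

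The third question was whether loss of HP1a or HP1g changed the genes. None of the 9 was called between KO and WT in any of the 6 pairs by edgeR, against 0.0%, 0.103% and 0.123% of genes in HP1a naive cells, Tconv and Tconv with Treg, and 0.00669%, 0.0437% and 0.0% in the same HP1g pairs. At an unadjusted p under 0.05 the counts for HP1a were 2, 1 and 2 of 9. Over all genes tested they were 291 of 15549, 1324 of 15521 and 1975 of 16256. For HP1g the counts were 1, 1 and 5 of 9, and over all genes 863 of 14939, 1349 of 16015 and 2028 of 17177. DESeq2 called 2 genes, Izumo1r and Rnf128, in both pairs with Treg. Without the low-count filter it called 2.47% of 28594 genes in HP1a and 2.11% of 28715 in HP1g. In the other 4 pairs it called none of the 9, against 0.0512% and 0.703% of all genes in HP1a naive cells and Tconv and 0.135% and 0.882% in the HP1g ones. Since edgeR called so few genes of any kind in these pairs, the values below are given as sizes with their errors.

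In naive cells the widest difference was that of Entpd1 in HP1a (0.85 ± 0.56 on the log2 scale, adjusted p = 0.9999), at under 1 CPM in both genotypes. Nt5e was higher in the 3 HP1a KO libraries (31.2, 40.3 and 32.6 CPM) than in the WT ones (16.3, 27.4 and 26.9 CPM), by 0.55 ± 0.21 (adjusted p = 0.9999), and the HP1g difference was 0.38 ± 0.23. In HP1g, Entpd1, Dgka and Dgkz were higher in every KO library than in every WT one, by 0.67 ± 0.45, 0.26 ± 0.20 and 0.41 ± 0.25; 18.5% of the 11955 genes that averaged 1 CPM or more separated in either direction there, a set without Entpd1, which averaged less. Replicate 2 of HP1g WT naive held the lowest Cblb, Itch, Dgka and Dgkz of its group (91.4, 71.2, 1007 and 209 CPM) and the highest Izumo1r (127 CPM).

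In Tconv without Treg, 8 of the 9 genes differed by at most 0.42 between HP1a or HP1g KO and WT on the log2 scale. The exception was Izumo1r in HP1g. The KO libraries held 67.8, 78.2 and 64.7 CPM and the WT libraries 41.6, 28.9 and 37.4 CPM, without overlap. The difference was 0.98 ± 0.15 (edgeR adjusted p = 0.13, unadjusted p = 0.00034), and DESeq2 gave an adjusted p of 3.4e-05, just under the fold threshold. In HP1a it was 0.03 ± 0.28.

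With Treg, Izumo1r and Rnf128 differed in opposite directions in the 2 lines. Izumo1r held 334, 411 and 262 CPM in HP1a WT and 65.6, 184 and 97.9 CPM in HP1a KO, without overlap (-1.55 ± 0.38, adjusted p = 0.16; DESeq2 0.0028). It held 89.8, 28.3 and 72.5 CPM in HP1g WT and 259.6 and 149 CPM in HP1g KO, again without overlap (1.70 ± 0.49, adjusted p = 0.27; DESeq2 0.011). Rnf128 was lower in each HP1a KO library (12.7, 9.99 and 9.26 CPM) than in each WT one (26.3, 37.6 and 23.5 CPM), by -1.47 ± 0.25 on the log2 scale (adjusted p = 0.079; 0.043 and called without WT replicate 3; DESeq2 6.5e-06). In HP1g it was 44.7 and 19.6 CPM in KO against 18.0, 7.06 and 7.37 CPM in WT (1.59 ± 0.53, adjusted p = 0.32; DESeq2 0.043).

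Nt5e had the same signs with less separation. HP1a KO libraries (70.2, 127 and 109.8 CPM) overlapped with WT (222, 262 and 86.8 CPM; -0.91 ± 0.41, adjusted p = 0.43), and HP1g KO libraries (214 and 142 CPM) lay above WT (117, 80.5 and 110.5 CPM; 0.81 ± 0.23, adjusted p = 0.26). Entpd1 was at 31.3, 11.8 and 36.0 CPM in HP1a KO and 57.4, 27.5 and 60.0 CPM in WT (-0.90 ± 0.45, adjusted p = 0.48). In HP1g its 2 KO libraries disagreed, at 93.3 and 36.5 CPM against 39.3 to 47.3 CPM in WT, and the estimate was 1.06 (adjusted p = 0.039) without KO replicate 2 and -0.26 (adjusted p = 0.71) without KO replicate 1. Among the 19 anergy and exhaustion genes, Lag3 and Tnfrsf9 fell in HP1a KO (-3.25 ± 0.34 and -2.24 ± 0.24) and none was called in HP1g, and no gene of the adenosine, ligase and diacylglycerol lists was called between KO and WT. Adora2a, Cblb, Itch, Dgka and Dgkz differed by at most 0.51 in HP1a and 0.63 in HP1g in either direction. In HP1a 1 of 9 genes was higher in KO without overlap (Dgka, 799 to 857 CPM against 342 to 719.8 CPM in WT) and 2 were lower (Izumo1r and Rnf128). Of 13006 genes that averaged 1 CPM or more, 1632 were higher and 1352 lower in this way. In HP1g 7 of 9 genes did not overlap between KO and WT, 6 higher and Itch lower, against 30.4% of 12712 genes.

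**Figure D4:**
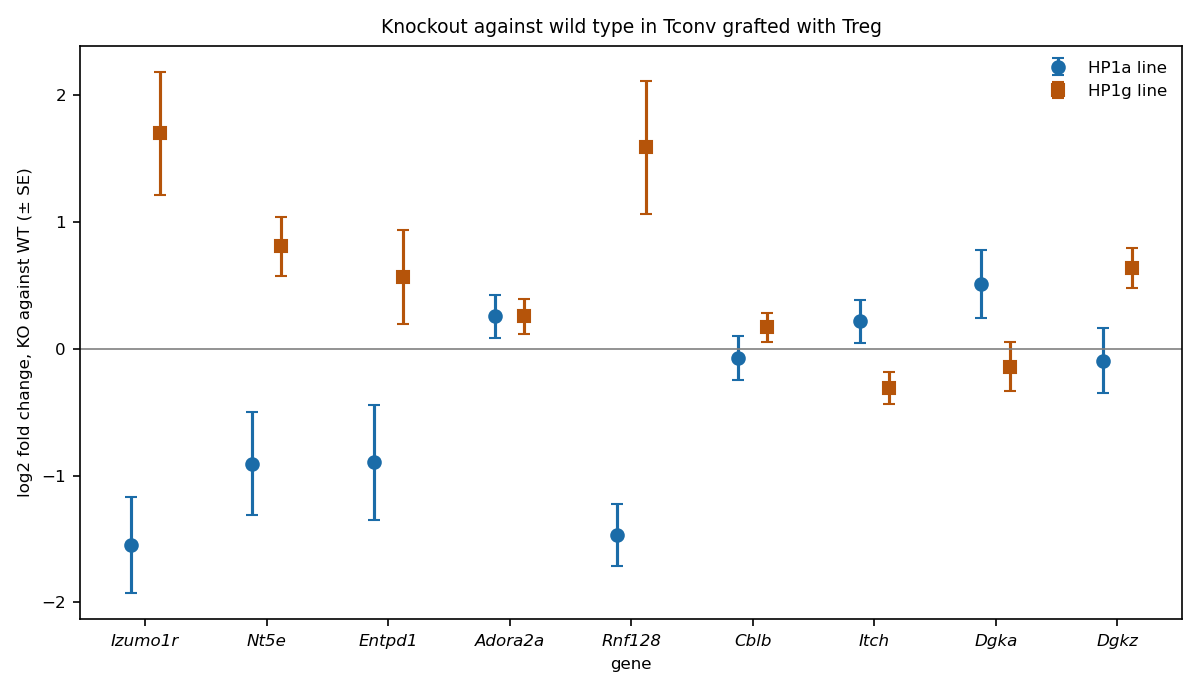
Log2 fold change of HP1a KO against HP1a WT (circles) and HP1g KO against HP1g WT (squares) in Tconv with Treg for each of the 9 genes. Bars are SE from edgeR. Izumo1r, Nt5e, Entpd1, Rnf128, Cblb and Dgkz lie below 0 in the HP1a line and above 0 in the HP1g line. The HP1a bars of Cblb and Dgkz cross 0. Itch and Dgka lie the other way, and Adora2a lies above 0 in both lines. Only the Izumo1r and Rnf128 differences between lines were called.

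The difference between the lines was tested in a single fit of the 11 libraries of Tconv with Treg. Deleted gene, Cre and Treg ratio cannot be told apart in this test. Izumo1r and Rnf128 were called, 2 of 9 genes lower in HP1a than in HP1g and none higher, against 1.78% lower and 0.948% higher of 18573 genes. The KO effect in HP1a minus that in HP1g was -3.23 ± 0.67 for Izumo1r (adjusted p = 0.032) and -3.04 ± 0.60 for Rnf128 (adjusted p = 0.028). For Nt5e it was -1.70 ± 0.53 (adjusted p = 0.12; -2.03 and 0.021 without HP1a WT replicate 3), for Entpd1 -1.45 ± 0.66 (0.28), for Dgkz -0.72 ± 0.33 (0.29), for Dgka 0.66 ± 0.36 (0.38) and for Itch 0.53 ± 0.21 (0.20). With single libraries left out, each of the 2 calls held in 4 of 11 fits. Izumo1r missed the threshold without HP1a WT replicate 1 or 2, HP1a KO replicate 1 or 3, HP1g WT replicate 2 or 3 or HP1g KO replicate 1 (adjusted p = 0.053 to 0.18, estimate -2.76 to -3.34). Rnf128 missed it without HP1a WT replicate 1, any HP1a KO replicate, HP1g WT replicate 2 or 3 or HP1g KO replicate 1 (adjusted p = 0.052 to 0.17, estimate -2.31 to -3.18). DESeq2 called Izumo1r, Rnf128 and Nt5e, against 4.56% of all genes. Of the anergy and exhaustion list 8 of 19 genes were lower in the same test and none higher, led by Lag3 (-6.44 ± 0.74), Tnfrsf9 (-4.77 ± 0.57) and Pdcd1 (-4.47 ± 0.67). Dgki and Dgkg were lower too, and no adenosine or ligase gene of the related lists was called.

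Marker levels also differed in this comparison. In Tconv with Treg, 5 of 10 follicular helper markers and 3 of 10 regulatory T cell markers were lower in the line difference. The myeloid list summed to 241 to 669 CPM in HP1a KO and 114 to 208 CPM in HP1a WT, against 152 and 307 CPM in HP1g KO and 164 to 184 CPM in HP1g WT. The erythroid list summed to 112 to 703 CPM in HP1a KO and 2.66 to 49.97 CPM in HP1a WT, and to 112 and 6104 CPM in HP1g KO and 154 to 3476 CPM in HP1g WT. Their part in the difference was not tested.

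Whether the Treg difference varied with genotype was tested by an interaction within each line. None of the 9 genes was called in HP1a or HP1g, against 0.139% of 17205 and 0.0% of 17833 genes. DESeq2 called 1 (Rnf128 in HP1a, against 1.12% of all genes) and 0 (0.0469%). In HP1a the Treg difference in KO minus that in WT was -1.57 ± 0.50 for Izumo1r (adjusted p = 0.28), -1.31 ± 0.37 for Rnf128 (0.21; DESeq2 0.034) and -1.05 ± 0.48 for Nt5e (0.51). In HP1g it was 0.71 ± 0.55, 1.65 ± 0.59 and 0.75 ± 0.58. Izumo1r and Rnf128 passed the Treg test in HP1a WT and not in HP1a KO, but the difference between the genotypes did not pass its own test by edgeR. The wild types of both lines were compared as well, where line and Treg ratio cannot be told apart. Between them, the Treg difference was larger in HP1a by 1.70 ± 0.52 for Izumo1r (adjusted p = 0.13), 2.12 ± 0.49 for Rnf128 (0.055) and 0.89 ± 0.22 for Cblb (0.065), and 0 of 9 passed against 1.56% of 17127 genes. With the replicate number as a block, Izumo1r (1.87, adjusted p = 0.033) and Rnf128 (2.21, adjusted p = 0.016) were called. For the same difference between wild types, without the block, DESeq2 called Izumo1r and Rnf128 (adjusted p = 0.022 and 0.0010), against 2.59% of all genes. Rnf128 was called without HP1a WT replicate 3 with Treg or HP1g WT replicate 1 with Treg (adjusted p = 0.042 and 0.0063), and Cblb without HP1a WT Tconv replicate 1 (1.05, adjusted p = 0.047). Of the 19 anergy and exhaustion genes, 2 were called lower in the HP1a interaction, among them Lag3 (-2.95 ± 0.46), none was called in the HP1g one, and 6 were called higher in the difference between wild types, led by Lag3 (4.81 ± 0.73).

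**Figure D5:**
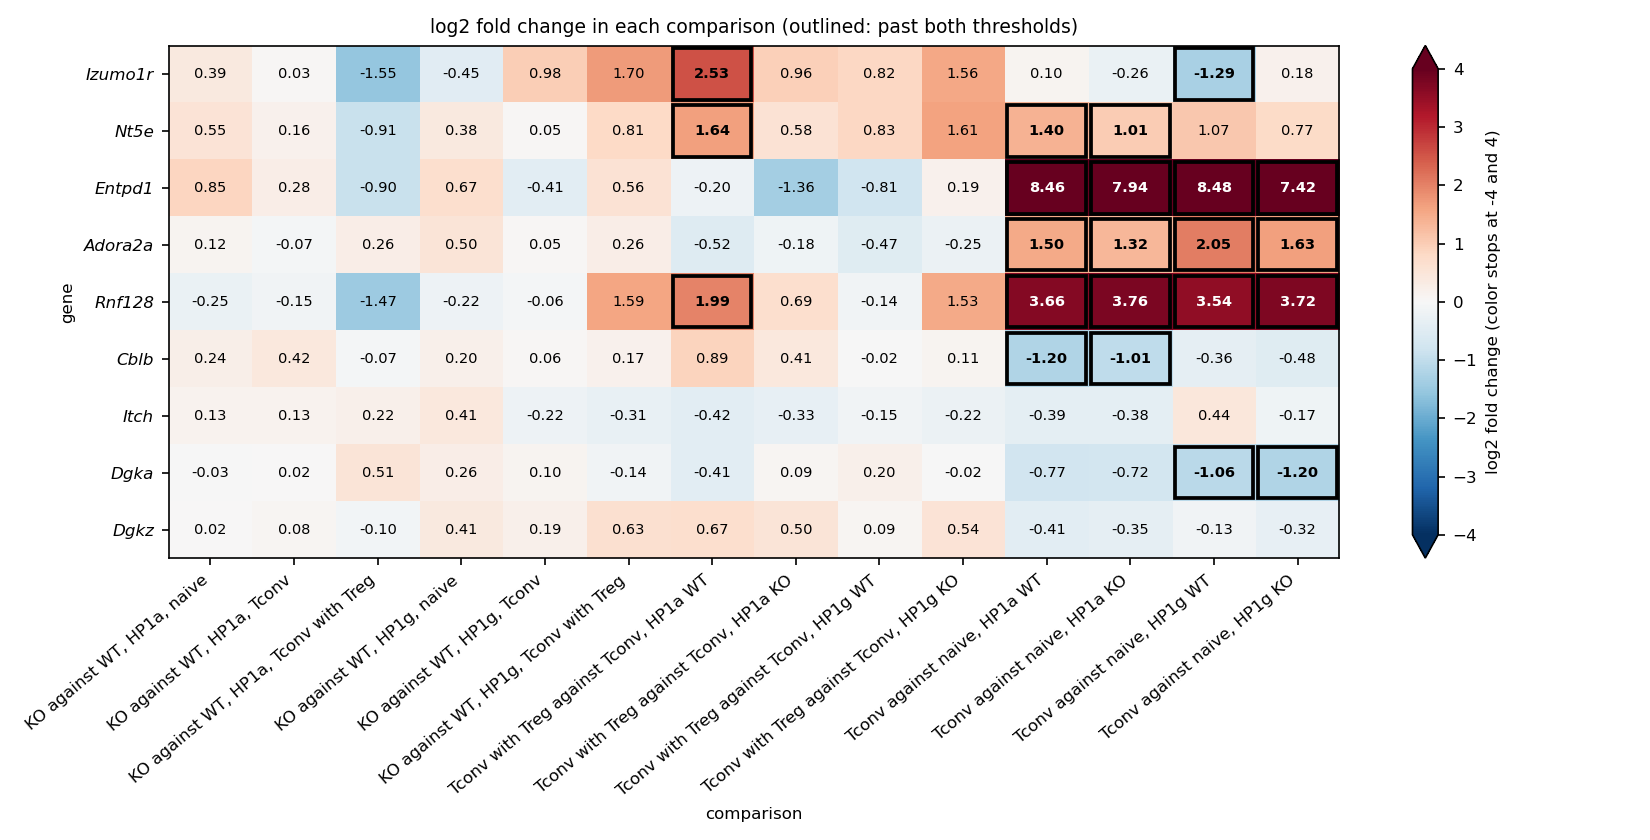
Log2 fold change of each gene (rows) in the 14 comparisons of 2 groups (columns), red for higher and blue for lower in the group named first. Outlined cells passed both thresholds, and the colour stops at 4 in either direction; the Tconv against naive columns hold 19 of the 22 outlined cells and HP1a WT with Treg the other 3.

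Over the 12 group means of log2(CPM + 1), the pattern of each gene was set beside those of 9365 genes that averaged 5 CPM or more, with predicted genes, clones and receptor segments left out. These correlations describe 12 means that share libraries and conditions. Rnf128 was most like Tigit, an inhibitory receptor (Pearson r = 0.991), then Stk39 (0.988) and Atcay (0.988). Izumo1r was most like Cd200, a ligand of an inhibitory receptor (0.968), Lbh (0.963) and Rnaset2b (0.948), a gene with a near-identical copy whose counts are uncertain. Entpd1 was most like Ryk (0.996), Ptpn13 (0.995) and the granzyme gene Gzmb (0.995), Adora2a like Apaf1 (0.989), the integrin gene Itgal (0.986) and Mapkapk2 (0.985), and Nt5e like Grhl1 (0.973), Ctsb (0.956) and Synpo (0.956). For Cblb the nearest was Setd2 (0.955), for Itch Nsd3 (0.975), for Dgka Washc4 (0.988) and for Dgkz Apc (0.926). Among the 9 genes, Nt5e and Rnf128 were alike (0.919), as were Entpd1 and Adora2a (0.939), while Rnf128 and Dgka ran opposite (-0.958). Izumo1r was alike with Nt5e to a lesser degree (0.666) and opposite to Itch (-0.743).

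In order of group means, Izumo1r ran from HP1a WT Tconv with Treg (336 ± 74.1 CPM, SD, n = 3) and HP1g KO Tconv with Treg (204 ± 78.2, n = 2) down to HP1g WT Tconv (36.0 ± 6.48, n = 3). Of the 11 steps between neighbours in that order, 2 had no overlap between libraries. Rnf128 ran from HP1g KO Tconv with Treg (32.2 ± 17.7, n = 2) and HP1a WT Tconv with Treg (29.1 ± 7.50, n = 3) down to HP1a KO naive (0.492 ± 0.160, n = 3), with 3 such steps. Nt5e had the same groups on top (190.4 ± 92.0 and 178 ± 51.1 CPM) and HP1a WT naive at the bottom (23.5 ± 6.27 CPM), with 1 such step. The libraries of the first 2 groups overlapped for Rnf128 and Nt5e, and for Izumo1r they were next to each other, at 262 CPM in the lowest HP1a WT library and 259.6 CPM in the highest HP1g KO library.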

How the data were processed

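Per the labels, polyA RNA of spleen CD4 T cells was sequenced from 36 samples with a low-input kit. The authors trimmed reads with Trim Galore, aligned them to GRCm39 with STAR and quantified them with Salmon, and deposited 1 table of estimated counts per gene, not normalized. Whether counting used strand is not given in the sources used here. Here the estimated counts were rounded to whole numbers. CPM were scaled with TMM factors over 35 libraries. Groups were compared with edgeR 4.0.16 (quasi-likelihood, robust, TMM, filterByExpr), fitted only on the groups of each comparison, with Benjamini-Hochberg adjustment over all genes tested. A call needed an adjusted p under 0.05 and a log2 fold change over 1. SE is the log2 fold change divided by the root of F. Alternatives were DESeq2 1.42.0, its size factors, no filter, no fold threshold, all libraries of a line, a replicate block and single libraries left out. The block pairs same-numbered samples. Their deviations went together in KO against WT of HP1a naive cells (r = 0.538 to 0.850) and in the Treg effect of HP1g WT (0.164 to 0.478), and no member call changed there. The pairing was read from the data. Tests were checked on simulated counts. Exon lengths and starts came from GENCODE vM39. Genes named in the text are the 9 members, the called genes of each related list with the largest changes and the 3 genes most like each member over the 12 group means. Members and lists were chosen with earlier results of these data known. Of the 2 anergy and exhaustion genes called in the HP1a interaction, only Lag3 is reported by name here.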

Additional observations from a re-analysis of the deposited data

Results flagged for a closer look

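The difference between the lines in the effect of the knockout on Tconv with Treg passed its test for 2 genes, Izumo1r (-3.231 on the log2 scale, HP1a minus HP1g) and Rnf128 (-3.037). Both knockout effects behind each value point away from each other, and neither passed on its own by edgeR.

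The HP1g KO Tconv with Treg library that was left out gave values above all 3 HP1g WT Tconv with Treg libraries for Izumo1r (173.9 CPM), Entpd1 (73.43 CPM), Cblb (915.0 CPM) and Dgkz (1359 CPM). Cblb and Dgkz were also above every library that was used. In the same library Itch (19.5 CPM), Adora2a (20.3 CPM), Nt5e (21.4 CPM) and Dgka (248 CPM) were below all HP1g WT Tconv with Treg libraries. It correlated at 0.633 with the others of its group.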

How the results depend on the processing

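Over 162 results of single genes, 24 were called, and of 2160 alternative values 2026 stayed on the same side of the threshold in the same direction. Calls were lost in 41 and gained in 38. The sign turned in 55, none of a called gene, 53 of them with 1 library left out, and the largest estimate among them was 0.563. The counts of called genes among the 9 moved as follows. In KO against WT with Treg, HP1a had 0, and 2 by DESeq2, 1 without the filter, 2 with all libraries of the line and 0 to 1 with 1 library left out, and HP1g had 0, and 2 by DESeq2, 1 with all libraries and 0 to 1 with 1 left out. The Treg effect in HP1g KO went from 0 to 3 by DESeq2 and 1 without the filter. Tconv against naive cells went from 5 to 8 without the fold threshold in HP1a WT and in HP1a KO, and to 3 to 5 with 1 library left out in HP1a KO. The interaction in HP1a went from 0 to 1 by DESeq2. The KO effect between lines went from 2 to 1 without the filter, 0 with the left-out library included and 0 to 3 with 1 library left out. The Treg effect between lines went from 0 to 2 by DESeq2, 1 without the filter, 1 with all libraries, 2 with the replicate block and 0 to 1 with 1 library left out. The causes were not tested. Where an arm was left with 1 library, it is assumed to vary like the other groups. The block changed no other count of calls by over 1.5 times. Depth limits Entpd1 in naive cells, where 5 to 24 counts lie behind each value.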
